A study of Rattus norvegicus with 10 samples.

Results

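The genes described here are 10 immediate early response genes (Fos, Fosb, Jun, Junb, Egr1, Atf3, Klf6, Nr4a1, Ier3 and Dusp1), picked by exact gene symbol from a table of 32545 genes. All 10 symbols were in the table, each on a single row, and all 10 had a mean of at least 0.5 FPKM, the level above which 14508 genes were tested. FPKM is fragments per kilobase of gene length, scaled to library size. Each library was made from kidney cortex RNA of SS/JrHsdMcwi (Dahl salt-sensitive) rats, an inbred strain in which a salty diet drives blood pressure up, and the labels give the genotype as wild type in every library. One group of 5 libraries came from rats fed 4% NaCl with 2% oxonic acid, an inhibitor of the urate-degrading enzyme uricase, for 3 weeks. The other 5 came from rats fed 4% NaCl alone (vehicle) for the same time. All rats had first eaten 0.4% NaCl, carried a telemetry device implanted at 8 to 9 weeks of age, and had their kidneys perfused with PBS under anaesthesia before the kidney was frozen. The design used both sexes, and the labels name no sex and no animal for a library, so p-values measure the spread between these libraries, part of which may be technical.

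Immediate early genes are transcribed within minutes of a stimulus, without new protein synthesis, because the factors that switch them on (serum response factor with its ETS partners, and CREB) already sit in the cell and are activated by mitogen-activated protein (MAP) kinases or cyclic AMP. Several encode transcription factors, among them the Fos and Jun proteins that pair to form AP-1, while others, such as the phosphatase Dusp1, switch the signal off again. In the kidney they are known for brisk induction after ischaemia, toxic injury, stretch and growth factors, and their messengers are short-lived.

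None of the 10 genes passed the test between diets (limma with Benjamini-Hochberg adjustment over all genes tested, adjusted p of 0.327 to 0.959), and the share of all genes tested that passed was 0.0%. The 10 genes were measured in the same libraries and varied together across them. A count of these genes is therefore not a count of separate observations. Values were lower with oxonic acid for 9 of the 10, against 48.2% of all genes tested, with a median log2 difference of -0.26 against 0.005 over all genes. Vehicle libraries 4 and 5 carried most of that gap. They had the highest median levels of these genes, so leaving them out was bound to raise the differences. Leaving out either one alone gave a median of -0.13. Without both, 4 of 10 genes were lower with oxonic acid, and the median log2 difference was 0.05. With all libraries kept but given limma's array weights, 7 were lower and the median was -0.05. Those weights are estimated from how far each library lies from its group in these same values. They are no outside measure of quality, so that fit is not an independent check. Klf6 and Atf3 had the largest differences among the 10, and Klf6, a zinc finger factor of injured epithelium and endothelium, was the only one whose groups did not overlap.

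The DNA just before the start of these genes is shown for Egr1, Klf6, Nr4a1 and Dusp1, the members that matched the CArG box, to which serum response factor binds, the whole cyclic AMP response element, or its core most often. RefSeq promoter entries on the GRCr8 build matched 6 of the 10 members by symbol (the 4 shown, Fosb and Junb). The 250 bases before each start were searched on both strands for the CArG box by name, for the cyclic AMP response element (TGACGTCA), for its core (TGACG, or CGTCA on the other strand), for the AP-1 site (TGAGTCA, or TGACTCA on the other strand) and for the EGR site (GCGTGGGCG, or CGCCCACGC on the other strand). Each whole element also contains 2 cores. The sequences run 5′ to 3′ along the gene, in lower case, with every match in capitals.
Egr1 (chr18:26736828-26737077, plus strand, GRCr8): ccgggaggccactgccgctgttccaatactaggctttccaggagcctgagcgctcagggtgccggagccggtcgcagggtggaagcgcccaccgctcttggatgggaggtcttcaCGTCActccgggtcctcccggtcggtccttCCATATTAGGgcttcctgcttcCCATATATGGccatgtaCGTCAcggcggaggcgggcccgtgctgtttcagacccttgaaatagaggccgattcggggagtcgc
Klf6 (chr17:69458479-69458728, minus strand, GRCr8): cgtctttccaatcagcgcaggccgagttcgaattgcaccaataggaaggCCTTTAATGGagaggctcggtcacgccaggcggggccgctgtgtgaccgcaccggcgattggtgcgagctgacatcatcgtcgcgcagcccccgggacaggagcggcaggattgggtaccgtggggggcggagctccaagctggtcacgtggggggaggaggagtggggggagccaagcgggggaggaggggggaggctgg
Nr4a1 (chr7:134259888-134260137, plus strand, GRCr8): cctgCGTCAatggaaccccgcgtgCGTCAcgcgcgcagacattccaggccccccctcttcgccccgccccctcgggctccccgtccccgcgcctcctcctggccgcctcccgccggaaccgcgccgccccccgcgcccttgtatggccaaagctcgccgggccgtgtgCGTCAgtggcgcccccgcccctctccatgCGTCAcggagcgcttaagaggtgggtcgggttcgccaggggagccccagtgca
Dusp1 (chr10:17184603-17184852, plus strand, GRCr8): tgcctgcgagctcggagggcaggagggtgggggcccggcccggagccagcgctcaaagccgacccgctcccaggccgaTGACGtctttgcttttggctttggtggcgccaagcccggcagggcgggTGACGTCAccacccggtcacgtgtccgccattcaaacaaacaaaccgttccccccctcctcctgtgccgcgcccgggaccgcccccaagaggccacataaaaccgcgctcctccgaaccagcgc

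Egr1 held 2 CArG boxes, beginning 105 and 83 bases before its start, with a core on either side of the pair. Klf6 held 1 CArG box, 201 bases before its start. Nr4a1 held 4 cores of the cyclic AMP response element. Dusp1 held the whole element 124 bases before its start and a further core 172 bases before it. Junb held 1 core and Fosb matched none of the motifs in this window. Of all 33469 rat promoters of that length, 1.5% held a CArG box, 1.59% the whole cyclic AMP response element, 18.2% a core, 4.05% an AP-1 site and 0.478% an EGR site, against 2, 1, 4, 0 and 0 of the 6 members. A match is a run of letters and was not tested for binding.

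Jun and Junb were the most abundant of the 10. By mean FPKM over the 10 libraries, a level per length, Jun stood at 70.0, Junb at 67.2, Ier3 at 35.9, Dusp1 at 24.4, Egr1 at 18.2, Fos at 13.2, Klf6 at 11.3, Nr4a1 at 8.23, Atf3 at 4.76 and Fosb at 0.719. In that order, the ranges over libraries of each gene and the next overlapped for every pair except Atf3 and Fosb. The reads behind these values, recovered from FPKM and length, numbered 15 to 83 per library for Fosb and 125 to 5339 for the other 9 genes, so Fosb is the least precise of them.

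**Figure D1:**
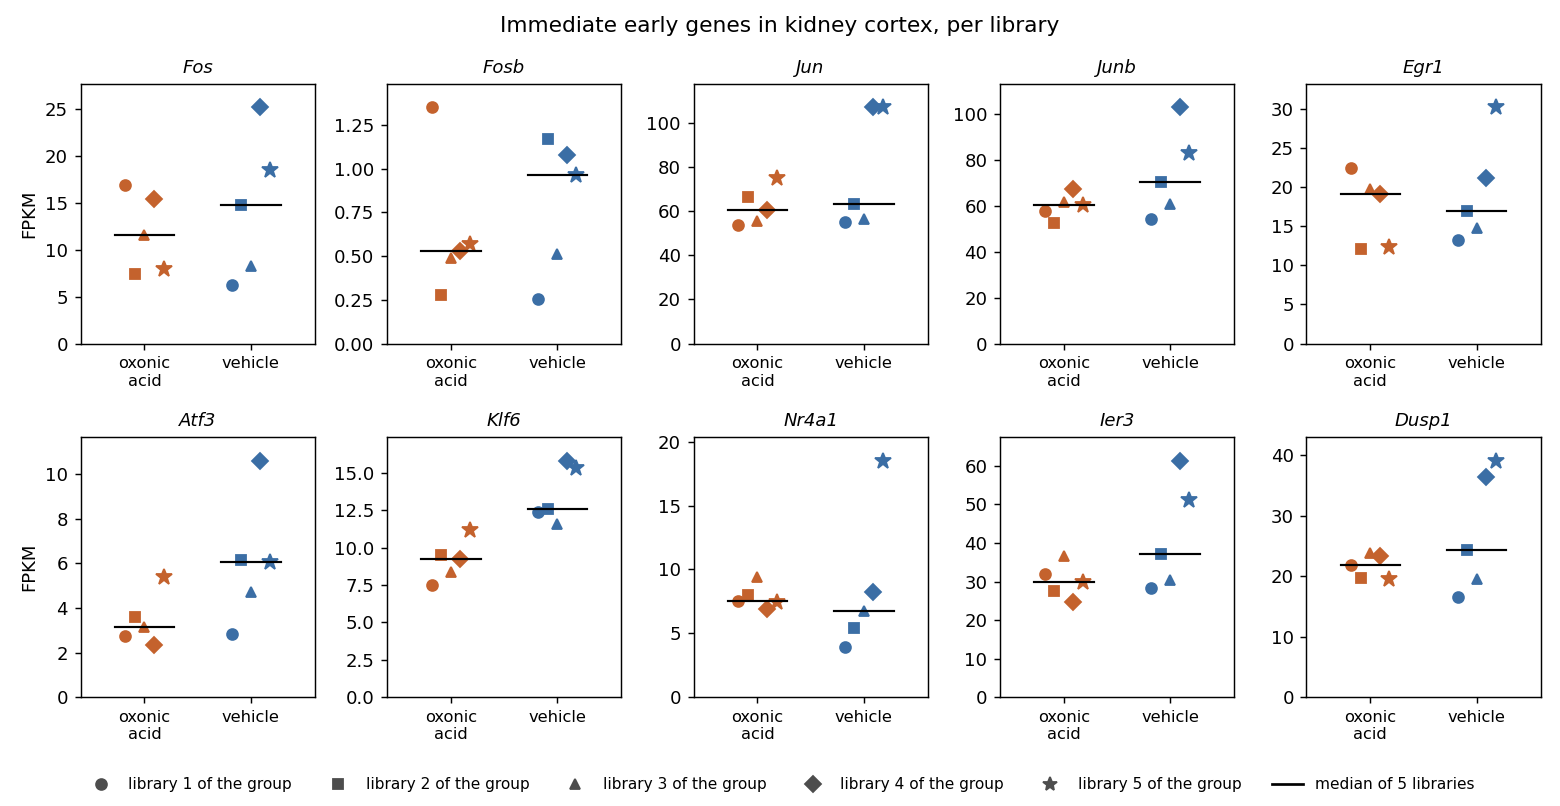
FPKM of the 10 immediate early genes in each library (points; marker shape gives the library number within its group), oxonic acid on the left and vehicle on the right of each panel, with the group median as a line and the vertical axis starting at 0. Vehicle libraries 4 (diamond) and 5 (star) are the highest 2 of all 10 libraries for Fos, Jun, Junb, Klf6, Ier3 and Dusp1, and the groups are separate for Klf6 alone.

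Fos, the inducible partner of Jun in AP-1 (ENSRNOG00000008015, chromosome 6, 109300433 to 109303299; positions here and for the genes that follow are those the authors deposited, with no build named), measured 16.9, 7.45, 11.6, 15.4 and 7.98 FPKM in oxonic acid libraries 1 to 5, against 6.25, 14.8, 8.28, 25.2 and 18.5 FPKM in vehicle libraries 1 to 5. Both groups held low and high libraries. The oxonic acid range lay inside the vehicle range, with vehicle libraries 4 and 5 above it and vehicle library 1 below it. The log2 difference was -0.19 (95% interval -0.99 to 0.60, limma adjusted p = 0.880). Fosb, a close relative of Fos that also needs a Jun partner (chromosome 1), measured 1.35, 0.276, 0.491, 0.529 and 0.571 FPKM with oxonic acid, against 0.257, 1.17, 0.512, 1.08 and 0.961 FPKM with vehicle. Oxonic acid library 1 was the highest of all 10 for Fosb and the third highest for Fos, and vehicle library 1 was the lowest for both. The Fosb log2 difference was -0.18 (95% interval -0.80 to 0.43, limma adjusted p = 0.846), understated by the pseudocount at this low level.

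Jun, the central AP-1 subunit and the most abundant of the 10 (ENSRNOG00000026293, chromosome 5, 114011189 to 114014277), measured 53.5, 66.5, 55.6, 60.5 and 75.0 FPKM with oxonic acid, against 55.0, 63.1, 56.3, 107 and 107 FPKM with vehicle. Vehicle libraries 1 to 3 lay inside the oxonic acid range, and vehicle libraries 4 and 5 lay far above it. Its log2 difference was -0.26 (95% interval -0.71 to 0.18, limma adjusted p = 0.688). Junb, a Jun relative that restrains some AP-1 targets (ENSRNOG00000042838, chromosome 19, 26092974 to 26094756), measured 57.9, 52.7, 61.9, 67.3 and 60.2 FPKM with oxonic acid, against 54.2, 70.6, 60.9, 103 and 83.0 FPKM with vehicle. Vehicle libraries 4 and 5 were again the highest, with vehicle library 2 also above all oxonic acid libraries. Inside the oxonic acid group the order differed from that of Jun. The Junb log2 difference was -0.28 (95% interval -0.61 to 0.06, limma adjusted p = 0.577).

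Atf3, a stress-induced bZIP repressor that can pair with Jun (ENSRNOG00000003745, chromosome 13, 109817728 to 109849632), measured 2.73, 3.60, 3.13, 2.36 and 5.40 FPKM with oxonic acid, against 2.83, 6.14, 4.71, 10.6 and 6.05 FPKM with vehicle. Vehicle library 4 stood highest, vehicle libraries 2 and 5 were above every oxonic acid library, and vehicle library 1 lay among the oxonic acid values. Atf3 had the largest log2 difference of the 10, -0.67 (95% interval -1.31 to -0.04, unadjusted p = 0.0400, limma adjusted p = 0.510), and it was -0.35 (95% interval -0.96 to 0.26) without vehicle libraries 4 and 5.

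Klf6 (ENSRNOG00000016885, chromosome 17, 67887939 to 67945037) measured 7.51, 9.49, 8.35, 9.22 and 11.2 FPKM with oxonic acid, against 12.4, 12.6, 11.6, 15.8 and 15.3 FPKM with vehicle. All 5 oxonic acid libraries lay below all 5 vehicle libraries, though the nearest values, 11.2 in oxonic acid library 5 and 11.6 in vehicle library 3, almost touched. Groups were separate in this direction for 0.965% of all genes tested and for 1 of these 10. Oxonic acid libraries averaged 9.16 ± 1.39 FPKM and vehicle libraries 13.5 ± 1.88 FPKM (SD, n = 5 each), and the log2 difference was -0.54 with an SE of 0.12 (limma, unadjusted p = 0.000653, adjusted p = 0.327). Klf6 kept most of its difference without vehicle libraries 4 and 5, at -0.40 (95% interval -0.66 to -0.15, limma adjusted p = 0.387). At an unadjusted limma p under 0.05, 2 of the 10 genes were lower (Klf6 and Atf3) and 0 were higher by the moderated test of limma, against 5.17% lower and 4.32% higher of all genes tested. The exact two-sided permutation test over libraries gave 0.00794 for Klf6, the smallest p that 5 against 5 libraries allow, and 0.0794 to 0.873 for the other 9 genes, all unadjusted.

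Egr1, a zinc finger factor induced through serum response factor (ENSRNOG00000019422, chromosome 18, 27657628 to 27661429), measured 22.5, 12.1, 19.8, 19.1 and 12.3 FPKM with oxonic acid, against 13.2, 16.9, 14.8, 21.2 and 30.2 FPKM with vehicle. Only vehicle library 5 exceeded all oxonic acid libraries, and the log2 difference was -0.14 (95% interval -0.66 to 0.38, limma adjusted p = 0.861). Egr1 and Fos shared their pattern inside the oxonic acid group, where libraries 1, 3 and 4 were above libraries 2 and 5 for both. Nr4a1, an orphan nuclear receptor induced by growth factors and cyclic AMP (ENSRNOG00000007607, chromosome 7, 142905758 to 142920216), measured 7.55, 8.00, 9.43, 6.94 and 7.47 FPKM with oxonic acid, against 3.96, 5.43, 6.78, 8.22 and 18.5 FPKM with vehicle. The oxonic acid libraries were tightly bunched, vehicle libraries 1 to 3 were all below them, vehicle library 4 lay among them and vehicle library 5 far above. Nr4a1 was the only one of the 10 with a positive log2 difference, 0.07 (95% interval -0.61 to 0.75, limma adjusted p = 0.959). Without vehicle libraries 4 and 5 that difference was 0.53 (95% interval 0.18 to 0.88, limma adjusted p = 0.387), which did not pass either.

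Dusp1, the nuclear phosphatase that inactivates MAP kinases (ENSRNOG00000003977, chromosome 10, 16970626 to 16973418), measured 21.9, 19.8, 23.9, 23.3 and 19.6 FPKM with oxonic acid, against 16.6, 24.4, 19.5, 36.4 and 39.1 FPKM with vehicle. Ier3, a short-lived regulator of cell survival (ENSRNOG00000000827, chromosome 20, 3438798 to 3440769), measured 32.0, 27.6, 36.6, 24.7 and 29.9 FPKM with oxonic acid, against 28.2, 37.1, 30.3, 61.3 and 51.1 FPKM with vehicle. For both genes vehicle libraries 4 and 5 were well above the other 8 libraries, which mixed. The log2 differences were -0.25 for Dusp1 (95% interval -0.71 to 0.22, limma adjusted p = 0.720) and -0.41 for Ier3 (95% interval -0.85 to 0.04, limma adjusted p = 0.547). Without vehicle libraries 4 and 5 they were 0.11 (95% interval -0.16 to 0.38) and -0.08 (95% interval -0.37 to 0.21).

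**Figure D2:**
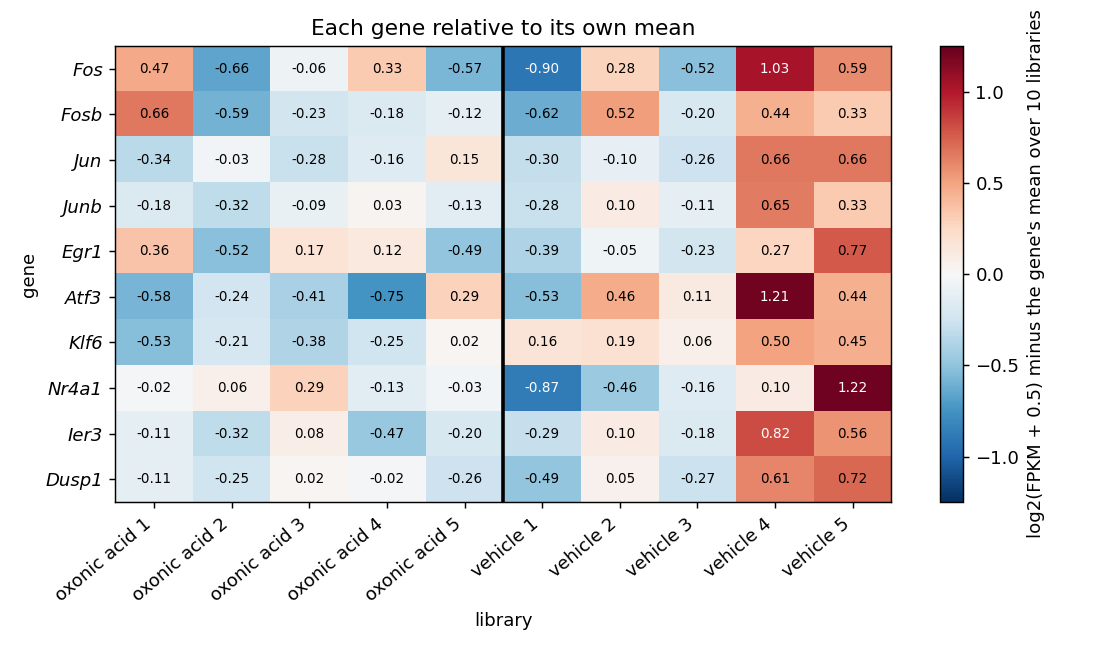
Heat map of each gene (rows) in each library (columns, oxonic acid left of the black line and vehicle right of it), as log2(FPKM + 0.5) minus the mean of that gene over the 10 libraries. Vehicle libraries 4 and 5 are above the mean for all 10 genes, with medians over the genes of 0.63 and 0.58, and vehicle library 1 has the lowest median, -0.44.

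Vehicle libraries 4 and 5 were above the 10-library mean for all 10 genes, where 50.5% of all genes tested were above theirs in library 5 and about as many in library 4. Over the 10 genes, the median deviation in log2(FPKM + 0.5) was 0.63 and 0.58 in these 2 libraries, and between -0.44 and 0.10 in vehicle libraries 1 to 3. In oxonic acid libraries 1 to 5 it was -0.11, -0.28, -0.07, -0.15 and -0.12, so all 5 lay inside the range of vehicle libraries 1 to 3. The 2 vehicle libraries were the highest 2 of 10 for 6 of the genes (Fos, Jun, Junb, Klf6, Ier3 and Dusp1), against 5.49% of all genes tested. One or the other was the highest for 9 of the genes, against 33.1% of all genes tested, and Fosb was the exception. The SD of log2 values was larger in the vehicle group than in the oxonic acid group for 9 of the genes, against 62.9% of all genes tested, the widest contrast being Nr4a1 with 0.16 with oxonic acid and 0.79 with vehicle. These counts over libraries 4 and 5 were made after the values had been seen. Fits without these libraries leave out the highest values, so a rise in the differences was built in.

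**Figure D3:**
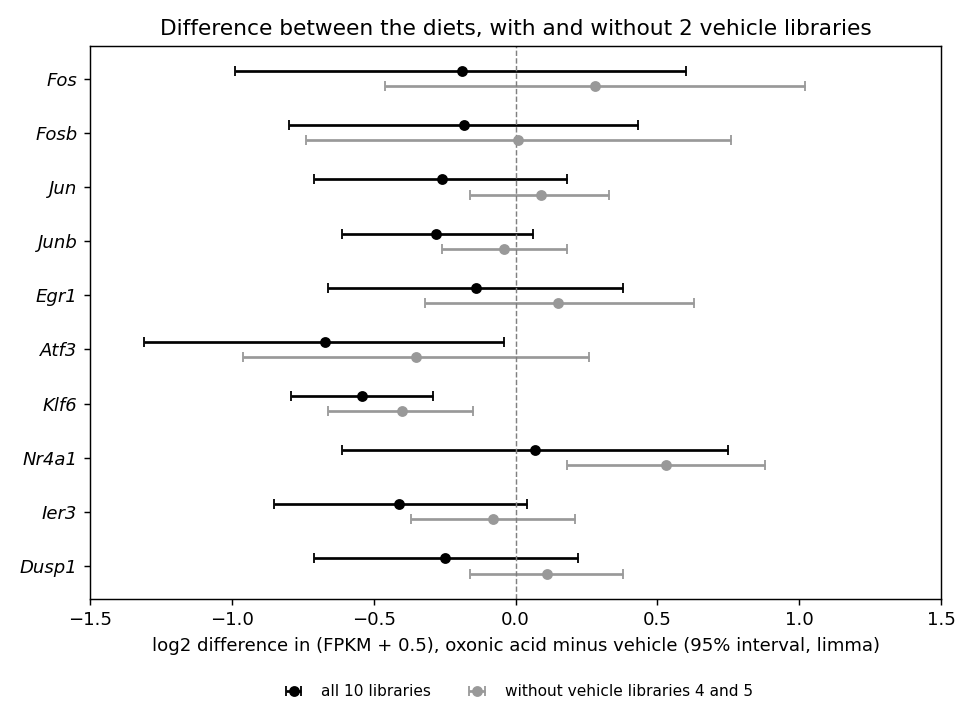
Log2 difference in (FPKM + 0.5) of each gene, oxonic acid minus vehicle, from limma with its 95% interval, using all 10 libraries (black) or leaving out vehicle libraries 4 and 5 (grey). With all libraries 9 of 10 points lie below 0, and without the 2 libraries 4 do, with Klf6 below 0 and Nr4a1 above 0 beyond their intervals, which are not adjusted for the number of genes. The libraries left out had the highest median levels of these genes, so a move to the right was built in.

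Library names carry a number, and by these numbers the libraries form 3 consecutive runs, which the labels do not call batches, and vehicle libraries 4 and 5 share the last with oxonic acid library 5. In that run, with 1 oxonic acid and 2 vehicle libraries, all 10 genes were lower with oxonic acid, by log2 differences of -0.45 (Klf6) to -1.38 (Fos). In the middle run, with 1 oxonic acid and 3 vehicle libraries, 4 genes were lower and 6 higher. The lower ones were Atf3 at -0.77, Klf6 at -0.38, Ier3 at -0.35 and Fosb at -0.08, and the higher ones ran from Jun at 0.06 to Fos at 0.71. The first run held 3 oxonic acid and 0 vehicle libraries and gives no difference. With the runs as a block, the 3 oxonic acid libraries of the first run add nothing to the difference. In that fit all 10 genes were lower with oxonic acid, with a median log2 difference of -0.29, Nr4a1 at -0.13 and Klf6 at -0.42, and none passed. Atf3, Klf6, Ier3 and Fosb were thus lower in both runs that can be compared, while the other 6 genes had opposite signs in the 2 runs.

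The libraries held 14536674 to 18508428 reads in genes. The 6 proximal tubule markers, among them the phosphate transporter gene Slc34a1 and the megalin gene Lrp2, were present throughout and summed to between 2726 and 3470.1 FPKM in oxonic acid libraries and between 2461 and 3404 FPKM in vehicle libraries. Other marker lists leaned one way or the other between the diets, though no list had a gene that passed after adjustment, and in bulk tissue fewer cells of a type and less RNA per cell cannot be told apart. Among all genes tested, 48.2% were lower with oxonic acid. At an unadjusted limma p under 0.05, 5.17% were lower and 4.32% higher. Tubular injury markers were lower with oxonic acid in 8 of 9 genes, 6 of them at an unadjusted p under 0.05, and summed to 924 to 1759 FPKM with oxonic acid and 1586 to 3753 FPKM with vehicle. Vehicle library 4 had the highest injury sum, 3753 FPKM, and vehicle library 5 had the lowest of its group, 1586 FPKM. Most of these sums was Spp1, at 2986 FPKM in vehicle library 4 and 1161 FPKM in vehicle library 5. Havcr1, Lcn2, Timp1 and Sox9 were also lowest of the vehicle group in library 5, whereas Krt8, Krt18, Vcam1 and Clu were not. For Krt8, and for no other of the 9, vehicle libraries 4 and 5 were the highest 2 of all 10, at 197 and 154 FPKM. Macrophage markers were lower in 10 of 11 genes tested, 5 of them at an unadjusted limma p under 0.05. Their sums were 366 to 465 FPKM with oxonic acid and 418 to 576 FPKM with vehicle, and vehicle library 5 was again the lowest of its group at 418 FPKM. Lyz2 was the largest part of these sums, at 247 FPKM in vehicle library 5. Of the macrophage markers Cd163 was at 0 in 1 library and near 0 in the others. T cell markers were lower in 6 of 6, 3 of them at an unadjusted limma p under 0.05. They summed to 25.3 to 26.6 FPKM with oxonic acid and 25.9 to 40.1 FPKM with vehicle, Cd4 being the largest part. Markers of other segments were higher with oxonic acid. The inner medulla list had the largest median of all marker lists, 0.78 in log2, with 5 of 5 tested genes higher and 2 of them at an unadjusted p under 0.05. Its sums were 23.3 to 134 FPKM with oxonic acid and 24.3 to 44.7 FPKM with vehicle, the highest being oxonic acid library 3, and the urea transporter gene Slc14a2 was at 0 in some libraries of both groups. Principal cell markers were higher in 4 of 4, 3 of them at an unadjusted p under 0.05, with a median of 0.34 and sums of 146 to 264 FPKM with oxonic acid and 126 to 175 FPKM with vehicle. Distal convoluted tubule markers were higher in 3 of 3 tested (median 0.35) and podocyte markers in 3 of 4 (median 0.26). Without oxonic acid library 3 the median of the 10 immediate early genes was -0.25, with 9 lower. Vehicle library 4 also had the lowest share of mitochondrial reads, 9.23%, where the whole range was 9.23% to 13.5%. The part these levels have in the immediate early values was not tested.

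Among relatives of these genes the pattern was uneven. The widest list, 34 tested immediate early genes other than the 10, had 30 lower with oxonic acid, against 48.2% of all genes tested. Its median log2 difference was -0.24. All 34 were measured in the same 10 libraries, so the 30 are not separate observations. Of the 34, 8 were lower and 0 higher at an unadjusted limma p under 0.05, and 0 passed. The shares of all genes tested were 5.17% lower and 4.32% higher. Without vehicle libraries 4 and 5, 23 of the 34 were lower, with a median of -0.13. In that fit 7056 of 14520 genes were lower. The proto-oncogene Myc, whose product drives growth, lay between 5.42 and 8.11 FPKM with oxonic acid, against 9.49 to 13.2 FPKM with vehicle, with no overlap (log2 difference -0.66, limma adjusted p = 0.327). Among all genes tested, 0.965% were separate in this direction. The small GTPase gene Rhob averaged 86.7 ± 11.8 FPKM in oxonic acid libraries and 118 ± 19.4 FPKM in vehicle libraries (SD, n = 5 each), and the matricellular gene Ctgf averaged 42.5 ± 7.13 and 54.3 ± 5.84 FPKM in oxonic acid and vehicle libraries (SD, n = 5 each), with limma adjusted p of 0.367 and 0.398. Vehicle libraries 4 and 5 were the highest 2 of 10 for 9 of the 34, among them Rhob, against 5.49% of all genes tested.

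**Figure D4:**
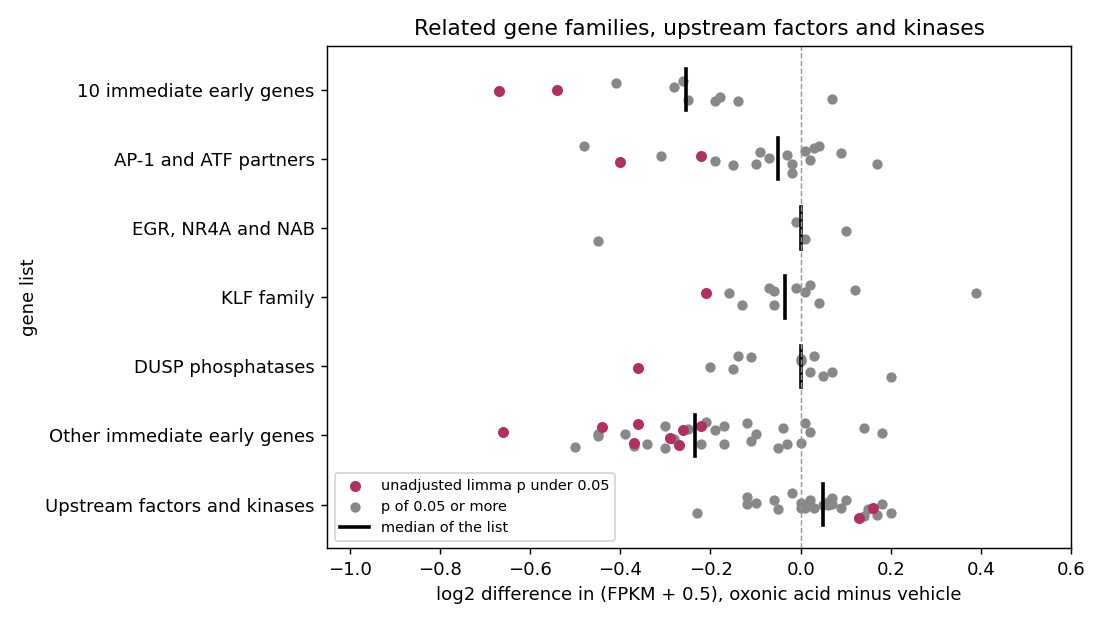
Log2 difference in (FPKM + 0.5), oxonic acid minus vehicle, of each tested gene (points) in the 10 immediate early genes and 6 lists of relatives, with the list's median as a bar; red points have an unadjusted limma p under 0.05, and none passed after adjustment. The medians are -0.26 for the 10 genes and -0.24 for the other immediate early genes, and between -0.05 and 0.05 for the other 5 lists.

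The lists of structural relatives had medians nearer to 0. Of 18 AP-1 and ATF partners 12 were lower and 6 higher, with a median log2 difference of -0.05. Among all genes tested, 48.2% were lower, and 5.17% were lower at an unadjusted limma p under 0.05. Fosl1 had -0.40 and Maff -0.22 (limma adjusted p of 0.503 and 0.522), and these were the 2 with an unadjusted p under 0.05. Batf3, a partner of Jun in immune cells, had -0.48 (limma adjusted p = 0.599). The KLF family had 7 of 12 lower and a median of -0.03. Klf2, a flow-responsive endothelial factor, had -0.21, Klf13 0.39 and Klf9 0.12 (limma adjusted p of 0.447 to 0.663). Of 12 dual-specificity phosphatases 7 were lower, with Dusp2 at -0.36, Dusp8 at -0.20 and Dusp6 at -0.11 (limma adjusted p of 0.425 to 0.641). Of the 4 EGR, NR4A and NAB genes tested 2 were lower. Egr2 had -0.45, the EGR corepressor Nab2 0.10 and Nr4a2 0.01 (limma adjusted p of 0.568 to 0.984), and Nab2 overlaps Stat6 on the opposite strand, so its value is uncertain, since whether reads were counted by strand is unknown here.

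Of 27 upstream kinases and factors tested, 19 were higher and 8 lower with oxonic acid, where 7511 of all 14508 genes tested were higher. Their median log2 difference was 0.05, against 0.005 over all genes. At an unadjusted p under 0.05, 2 of the 27 were higher and 0 lower, against 4.32% higher and 5.17% lower of all genes tested. Map2k7, a kinase that activates JNK, had 0.16, and Mapk8, which encodes JNK1, had -0.23 (limma adjusted p of 0.511 and 0.537).

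The genes whose library pattern was most like that of the 10 were ranked by Pearson's r, over the 10 libraries and after removing each group's mean, with the mean standardised value of the 10. The transcription factor gene Elf1 came first (r = 0.99, Spearman's rho = 0.87). It was followed by Pvrl2, encoding the adhesion protein nectin-2 (r = 0.95), the G protein subunit gene Gna15 (r = 0.93), the antiproliferative early gene Btg2 (r = 0.93), the ubiquitin-conjugating enzyme gene Ube2r2 (r = 0.92) and the scramblase gene Plscr3 (r = 0.92). Leaving out vehicle libraries 1 and 4, the farthest from the median, gave r of 0.84 to 0.96 for these 6. They were taken from the top of all genes tested, so no p is given. Their ranges differed in width. Btg2 measured 14.6, 12.7, 18.5, 15.3 and 13.7 FPKM with oxonic acid, against 13.4, 19.1, 14.5, 25.5 and 25.2 FPKM with vehicle, whereas Elf1 measured 13.4, 12.9, 13.7, 13.3 and 13.5 FPKM with oxonic acid, against 11.0, 12.9, 11.3, 14.5 and 14.2 FPKM with vehicle. Of the 10 genes themselves, Dusp1 was nearest to the shared pattern (r = 0.97) and Klf6 farthest (r = 0.60), each being part of the mean it was set against.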

How the data were processed

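Kidney cortex RNA from 10 libraries was compared, 5 per diet. Trizol extraction was followed by poly-T bead selection, per the labels' protocols. Tools named in the submitters' processing notes were featureCounts 1.5.0-p3, StringTie 1.3.3b, HISAT2 2.0.5 and fastp, without a genome build. The deposited table holds FPKM per gene and library, computed by the authors. FPKM times gene length came out as whole multiples of a constant per library (whole to within 0.01 read for 100% of values), and these multiples are the reads per gene, 14536674 to 18508428 in all per library. No libraries agreed within sampling noise (lowest chi-square per degree of freedom 5.0). Each column carries a library name found in 1 sample's description.

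Genes with a mean of at least 0.5 FPKM (14508) were fitted on log2(FPKM + 0.5) by limma 3.58.1 with a trend (R 4.3.3), for oxonic acid minus vehicle. P-values are two-sided, with Benjamini-Hochberg adjustment over all genes tested and a threshold of 0.05. The pseudocount understates differences of low genes. FPKM is relative to library size, so abundant transcripts affect the others. The fit was checked on simulated data, with changes far larger than those of the 10 genes and no pattern shared between genes. That check does not bear on differences of their size. The 10 genes and all lists were chosen with earlier results of these data known, and no list was tested as a whole. Of 122 symbols in 6 related lists, 114 were matched and 106 tested. From each list the text names the 3 genes with the smallest p outside the 10, and from all genes the 6 most like the 10 in library pattern. One gene that this rule names is not reported here. Other genes named are markers or counted exceptions. Plots used Python 3.11.15 with matplotlib 3.10.9. Alternatives covered the pseudocount, filter, scaling, voom on recovered reads, library weights, blocks and left-out libraries.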

Additional observations from a re-analysis of the deposited data

Results flagged for a closer look

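In 4 of the 68 gene and group combinations examined (34 named genes in 2 groups of 5 libraries), 1 library stood far from the other 4, with a gap to its neighbour of over 0.71 of the group's range in log2(FPKM + 0.5). Chance marks about 1 in 20 groups, and none of the 4 concerned the 10 immediate early genes. Egr2 was at 1.70 FPKM in oxonic acid library 3, above the rest of that group. Fosl1 was at 0.792 FPKM in vehicle library 2, Ctgf at 44.3 FPKM in vehicle library 3 and Klf13 at 5.51 FPKM in vehicle library 4, each below the rest of its group.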

How the results depend on the processing

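Over 21 alternatives, 197 of 209 values for single members of the 10 kept their sign, and all 209 stayed short of the threshold, the lowest limma adjusted p being 0.234, for Klf6. Junb, Atf3, Klf6 and Ier3 were lower with oxonic acid in every alternative, Klf6 with log2 differences of -0.61 to -0.40. Without vehicle libraries 4 and 5, 4 of 10 genes were lower, the median log2 difference was 0.05, and the differences of Fos, Fosb, Jun, Egr1 and Dusp1 turned to 0.28, 0.01, 0.09, 0.15 and 0.11. As these libraries had the highest median levels of the 10 genes, a rise was built into that alternative. With array quality weights, which are estimated from these same values, the median was -0.05 with 7 genes lower, and Fos and Egr1 were at 0.13 and 0.02. A block for the runs of library numbers put Nr4a1 at -0.13. That value rests on the runs that held both diets, with 0.37 in the middle run and -0.69 in the last. Leaving out 1 library at a time gave a median of -0.39 to -0.13 with 8 to 10 genes lower, and log2 differences of -0.44 to 0.04 for Fos, -0.26 to 0.03 for Egr1 and -0.14 to 0.38 for Nr4a1. The turn came without vehicle library 4 for Fos, without vehicle library 5 for Egr1, and without vehicle library 1 or 2 for Nr4a1. For the turns with weights or blocks the cause was not tested.

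The number of genes passing was 0, with 1377 at an unadjusted p under 0.05. It was 1 with array quality weights (Tap2), and 0 to 1 when 1 library at a time was left out (SNORA3 without vehicle library 1). Voom on recovered reads passed 0 genes, with 1414 at an unadjusted p under 0.05. Same-numbered libraries of the 2 groups showed little likeness. Their deviations from the group means correlated at -0.0132 to 0.203, and 1 of 5 oxonic acid libraries correlated best with its own number. Low correlations cannot exclude that they were pairs. With the number as a replicate block 0 genes passed and the median of the 10 genes was -0.26. The filter at a mean of 1 FPKM left Fosb out. With 15 to 83 reads per library, Fosb is the value that depth limits most.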
